A study of Canis lupus familiaris with 39 samples.

Results

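Cadherins are calcium-dependent adhesion proteins of the cell surface. A classical cadherin binds a cadherin of the neighbouring cell with its outer part, and its tail binds beta-catenin and CTNND1 inside the cell, where alpha-catenin links the complex to actin filaments. Other members of the family depart from this plan: CDH13 has no tail and is held in the membrane by a lipid anchor, and CDH16 and CDH17 have short tails without the catenin binding site. Many of the common names of cadherins come from the organ in which they were first described, such as E-cadherin for epithelium, N-cadherin for neural tissue, K-cadherin for kidney and M-cadherin for muscle.

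The levels of 10 cadherin genes (CDH1, CDH2, CDH3, CDH6, CDH10, CDH11, CDH13, CDH15, CDH16 and CDH17) were examined across 10 organs of the dog. Every probeset of the array that carries only the symbol of one of these genes was used. This rule reads no measured value, but the genes were picked with earlier results of these data known, so the counts below describe them and are no test of the choice. There were 20 such probesets among the 42860 on the array, and 10 genes among the 15115 with a symbol of their own. Tissue was pathologically normal and untreated, and came from 4 dogs, beagles and mixed breed animals of both sexes, from a few months to several years old. The groups were cerebrum (here brain), heart, jejunum, kidney, liver, lung, peripheral lymph node, skeletal muscle and spleen with 4 arrays each, and pancreas with 3. The organs of a dog share that dog, the labels do not tell which dog gave which array, and the p-values below treat arrays as independent and measure only the spread between them.

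Values are log2 intensities as deposited. Across the table they ran from 2.61 to 14.74, and the medians of the arrays lay between 3.95 and 4.11, so a level near 4 is that of the typical probeset. The highest tissue mean stayed under 5 for 50.5% of all probesets and for 9 of the 20 cadherin probesets. Levels were compared only within a probeset, since different probesets do not bind alike. In bulk tissue, fewer cells of a type and less RNA per cell cannot be told apart. Each of the 39 arrays was nearest to an array of its own tissue over all probesets. The mean of each organ's marker list was highest in that organ, with lymphocyte markers for lymph node and no list for spleen. Single markers departed from this. SFTPD, a lung marker, read 10.49 in jejunum and 9.86 in lung, and GCG, a pancreas marker, 9.53 in jejunum and 7.93 in pancreas. GFAP in brain, CDX1 in jejunum, PAX8 in kidney and NKX2-1 in lung stayed under 5. Some arrays also carried markers of another organ. The mean of 6 pancreas markers was 5.61, 3.51, 6.14 and 7.61 in skeletal muscle replicates 1 to 4. It was 4.89 in brain replicate 3 and 5.32 in lymph node replicate 4. The mean of 6 skeletal muscle markers was 5.36 and 6.14 in brain replicates 1 and 3. That of 5 liver markers was 7.16 and 7.22 in lung replicates 1 and 3 and 6.61 in heart replicate 2. Their part in the cadherin values was not tested.

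A moderated F test over the 10 tissues, fitted with limma and adjusted over all probesets, called 16 of the 20 cadherin probesets at a false discovery rate of 0.001, beside 54.6% of all probesets. Where a gene has several probesets, the brightest on average was taken to represent it. By representatives 7 of 10 genes were called, and by any probeset 9 of 10, with CDH1 as the exception. A probeset was called enriched when its mean in a tissue passed the test against the mean of the other 9 tissues with a fold above 10. This held for 5 of 20 cadherin probesets, beside 7.58% of all probesets, and they belonged to CDH2, CDH13, CDH16 and CDH17. Of the 20 probesets, 17 were called higher in at least 1 tissue (56.7% of all probesets) and 8 lower in at least 1 tissue (25.8% of all probesets). The leading tissue passed the test against the next tissue for 5 probesets (13.5% of all probesets), and in 6 probesets every array of the leading tissue lay above every other array (16.6% of all probesets). The leading tissue was read from the same values that were tested.

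**Figure D1:**
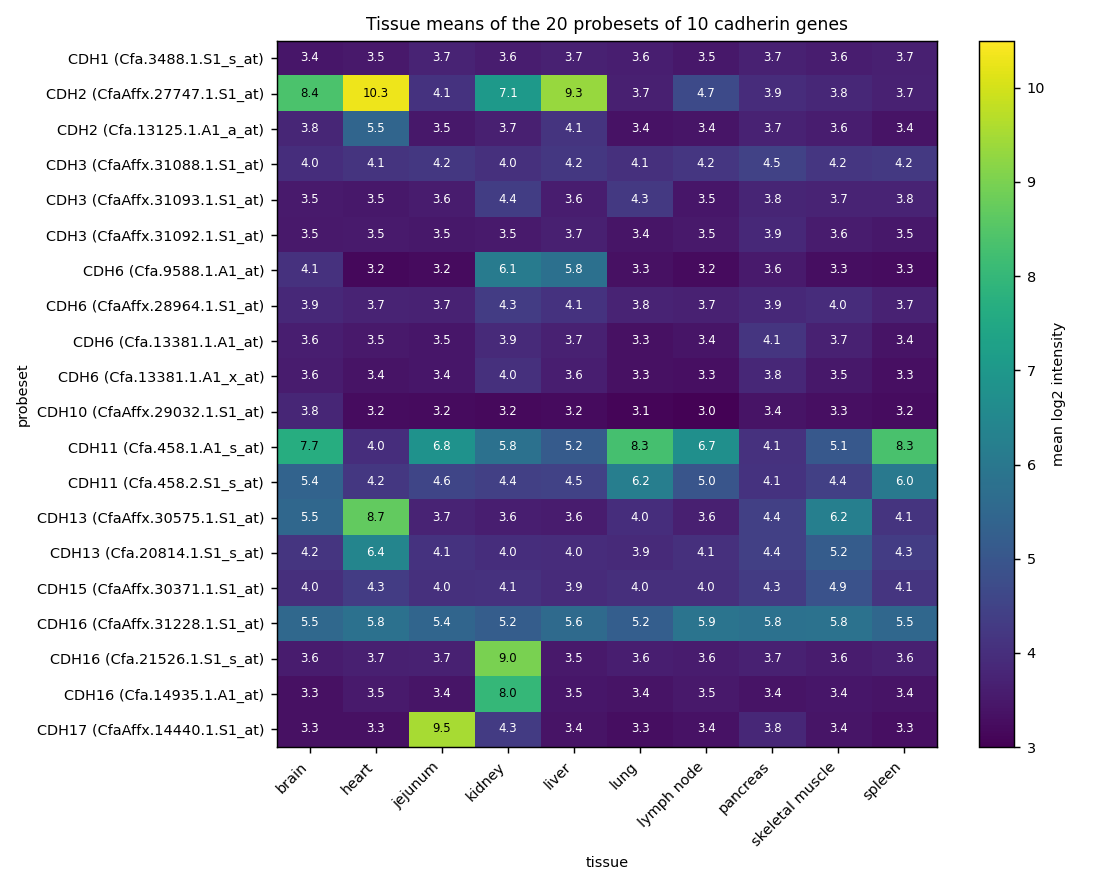
Mean log2 intensity of the 20 probesets of the 10 cadherin genes (rows) in each of 10 canine tissues (columns), with 3 arrays for pancreas and 4 for each other tissue. CDH17 stands out only in jejunum and a pair of CDH16 probesets only in kidney, CDH2 and CDH11 are high in several tissues, and the rows of CDH1, CDH3, CDH10 and CDH15 stay under 5.

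As read by these probesets, the name of cadherins of single organs fitted few of these genes. CDH17 stood apart in jejunum and CDH16 in kidney. CDH13 led in heart but was also called higher in skeletal muscle. CDH2, CDH6 and CDH11 were each called higher in more than 1 organ, and CDH1, CDH3, CDH10 and CDH15 did not reach a tissue mean of 5 with any probeset. At such levels a scarce transcript and a probeset that responds little cannot be told apart. By organ, counting any probeset, kidney had the most cadherin genes called higher, with 4 (CDH2, CDH3, CDH6 and CDH16), beside 9.83% of all genes. Of these, the CDH3 call was kept in only 9 of 39 omissions of an array. Lymph node had 0 called higher, beside 14.6% of all genes, and 5 called lower (CDH2, CDH6, CDH13, CDH16 and CDH17), beside 9.56%. Each tissue is compared with the mean of the others, so a gene very high elsewhere can be called lower wherever it is dim. CDH17, at 9.52 in jejunum, was called lower in 7 tissues, and CDH2, on its brighter probeset, in 6. The count of lower calls therefore does not by itself show a trait of lymph node. Without any single lymph node array the lower calls of CDH6, CDH13 and CDH16 were lost, which leaves CDH2 and CDH17. With the replicate number as a block CDH16 was not called in lymph node either (limma, adjusted p = 0.00157). With arrays set to equal medians of housekeeping genes, the lymph node calls of CDH6, CDH16 and CDH17 were lost (0.00287, 0.00944 and 0.00106). The kidney calls of CDH2 and CDH3 were lost as well (0.00114 and 0.253).

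CDH17, the liver-intestine cadherin of the lateral membrane of intestinal epithelium, was the most jejunal of the 10 genes. Its only probeset read 8.91, 10.14, 9.67 and 9.35 in the 4 jejunum arrays. No other array passed 4.75. The jejunum mean of 9.52 ± 0.52 (SD, n = 4) was 64.4-fold above the mean of the other 9 tissues (limma, adjusted p = 1.14e-27). The next tissue was kidney, with 4.01, 4.57, 3.84 and 4.75, a mean of 4.29 ± 0.44 (SD, n = 4). Jejunum exceeded kidney by 5.23 on the log2 scale with a standard error of 0.16 (limma, adjusted p = 1.33e-22). Kidney was in turn above 7 of the remaining 8 tissues by 0.85 to 1.01 on the log2 scale, and it was not separated from pancreas (3.83 ± 0.09, SD, n = 3, limma adjusted p = 0.0339). All kidney arrays lay under 5, close to the level of most probesets. The other 7 tissues had means of 3.28 to 3.44, and no neighbours in that order differed by the test. The tissue called liver in the common name of CDH17 read 3.32, 3.41, 3.45 and 3.38.

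CDH16, the kidney-specific cadherin of the basolateral membrane of renal tubules, had 3 probesets that did not read alike. The first kidney probeset read 9.11, 9.63, 7.80 and 9.40 in kidney and at most 4.0 in any other array. Its kidney mean of 8.99 ± 0.82 (SD, n = 4) was 41.4-fold above the other tissues (limma, adjusted p = 5.50e-24). The second read 8.62, 8.32, 7.22 and 7.87 in kidney, 23.8-fold above the others (limma, adjusted p = 5.45e-25), and at most 3.71 elsewhere. Kidney replicate 3 was the lowest of the 4 on both. Over the 39 arrays these probesets correlated with r = 0.99. The third had tissue means from 5.20 in kidney to 5.89 in lymph node, was not called by the F test (limma, adjusted p = 0.00566), and correlated with the others at r = -0.38 and -0.36. Its kidney arrays read 5.51, 5.05, 5.27 and 4.98, which made kidney its lowest tissue. This flat probeset has the highest mean over the 39 arrays and so represents CDH16 in the counts by gene, which is why CDH16 is missing from the 3 genes enriched by representatives (CDH2, CDH13 and CDH17).

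CDH2, N-cadherin, links heart muscle cells at intercalated discs and also joins neurons, hepatocytes and tubule cells. The brighter of its probesets divided the organs sharply. Heart read 10.22, 10.49, 10.28 and 10.26, liver 9.36, 9.12, 9.28 and 9.56, brain 8.12, 9.03, 7.59 and 8.76, and kidney 7.03, 7.74, 6.94 and 6.56. All other arrays lay at or under 5.25. Heart (10.31 ± 0.12, SD, n = 4) and liver (9.33 ± 0.18, SD, n = 4) were enriched, 29.9-fold and 14.0-fold above the respective other tissues (limma, adjusted p = 5.21e-19 and 2.54e-16). Brain was 6.72-fold and kidney 2.46-fold higher (limma, adjusted p = 8.44e-13 and 8.88e-06). The other 6 tissues were called lower. When arrays were set to equal medians of 13 housekeeping genes, the kidney call was lost (limma, adjusted p = 0.00114), and in pancreas the difference of -2.18 became -0.44 (0.204). In the order of the levels, heart and liver differed by 0.98 with a standard error of 0.28 and did not pass the threshold (limma, adjusted p = 0.00694), although their arrays did not overlap. Liver and brain did not pass it either (0.00707), while brain exceeded kidney (3.42e-04) and kidney exceeded lymph node (2.16e-08). Lymph node arrays were spread, at 4.45, 5.20, 3.84 and 5.25.

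Skeletal muscle, which unlike heart muscle has no intercalated discs, read 4.07, 3.57, 4.22 and 3.5 for CDH2 on this probeset. Heart exceeded it by 6.47 on the log2 scale (limma, adjusted p = 1.95e-18). The dimmer probeset of CDH2 was called higher in heart alone. It read 5.57, 5.86, 5.03 and 5.35 in heart, 4.54, 4.0, 3.93 and 4.04 in liver, and at most 4.1 in the remaining arrays. Heart was 3.55-fold above the other tissues (limma, adjusted p = 2.57e-16) and exceeded liver on this probeset (limma, adjusted p = 5.11e-10). Brain, at 3.79, and kidney, at 3.66, were not called on it. The probesets of CDH2 correlated with r = 0.77 over the 39 arrays.

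CDH13, the anchored T-cadherin and a receptor for adiponectin, was highest in heart. The brighter of its probesets read 9.03, 9.18, 8.07 and 8.50 there. The mean of 8.69 ± 0.51 (SD, n = 4) was 20.7-fold above the other tissues (limma, adjusted p = 2.04e-14). Skeletal muscle came next, at 4.25, 7.72, 6.41 and 6.58. Replicate 1 lay at the level of pancreas and spleen, while the other 3 arrays lay above every array outside heart. Skeletal muscle was still called higher (3.14-fold, limma adjusted p = 1.41e-05), and heart exceeded it by 2.45 with a standard error of 0.37 (limma, adjusted p = 8.69e-06). Brain read 5.0, 5.47, 5.85 and 5.76, which was not separated from skeletal muscle (0.131) but exceeded jejunum, kidney, liver and lymph node by 1.78 to 1.96 (limma, highest adjusted p = 2.21e-04). The dimmer probeset gave the same leading pair. Heart read 5.83, 7.96, 5.81 and 6.02 and skeletal muscle 4.23, 6.63, 4.65 and 5.17, so replicate 2 was the highest array of each. Heart was 4.51-fold above the other tissues (limma, adjusted p = 2.70e-08), and without heart replicate 2 it was 3.15-fold (limma, adjusted p = 3.66e-07). Heart replicate 2 also had the highest liver marker mean of heart, 6.61 beside 4.18 to 5.25, whose part in these values was not tested. Heart and skeletal muscle did not differ by the threshold on this probeset (limma, adjusted p = 0.0141).

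In the same 4 skeletal muscle arrays, MYF6, a myogenic regulator, read 5.69, 8.18, 7.81 and 8.17, so replicate 1 was lowest there as well. The mean of 6 skeletal muscle markers was 12.2 to 12.9 in all 4. The part of these differences in the CDH13 values was not tested.

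CDH6, K-cadherin, known from the developing nephron, was shared by kidney and liver. On the brightest of its 4 probesets kidney read 5.15, 6.41, 6.39 and 6.56 and liver 5.19, 6.09, 5.45 and 6.30. The ranges overlapped. Kidney (6.13 ± 0.66, SD, n = 4) was 5.57-fold and liver (5.76 ± 0.52, SD, n = 4) 4.18-fold above the other tissues (limma, adjusted p = 2.63e-13 and 1.72e-11), and they did not differ from each other by the test (0.368). Liver exceeded brain (limma, adjusted p = 3.24e-07), which read 3.68, 4.88, 3.76 and 3.91. The remaining 7 tissues had means of 3.17 to 3.55, and heart and lymph node were called lower, at 0.572-fold and 0.598-fold. The heart call was lost without any single heart array (limma, highest adjusted p = 0.00316) and with the housekeeping scaling (0.300). The lymph node call was kept in 7 of 39 omissions of an array and lost with that scaling (0.00287). The other 3 probesets of CDH6 had no tissue mean above 4.33. On the second, kidney alone was called higher (4.33, 1.42-fold), on the third pancreas (4.15, 1.5-fold), and on the last kidney (4.04, 1.48-fold) and pancreas (3.84, 1.26-fold). The last pancreas call was kept in 16 of 39 omissions (limma, adjusted p = 0.0278 without pancreas replicate 3) and lost with the replicate block (0.00120), and both kidney calls were lost with the housekeeping scaling (0.536 and 0.399). Liver was not called on any of the 3.

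**Figure D2:**
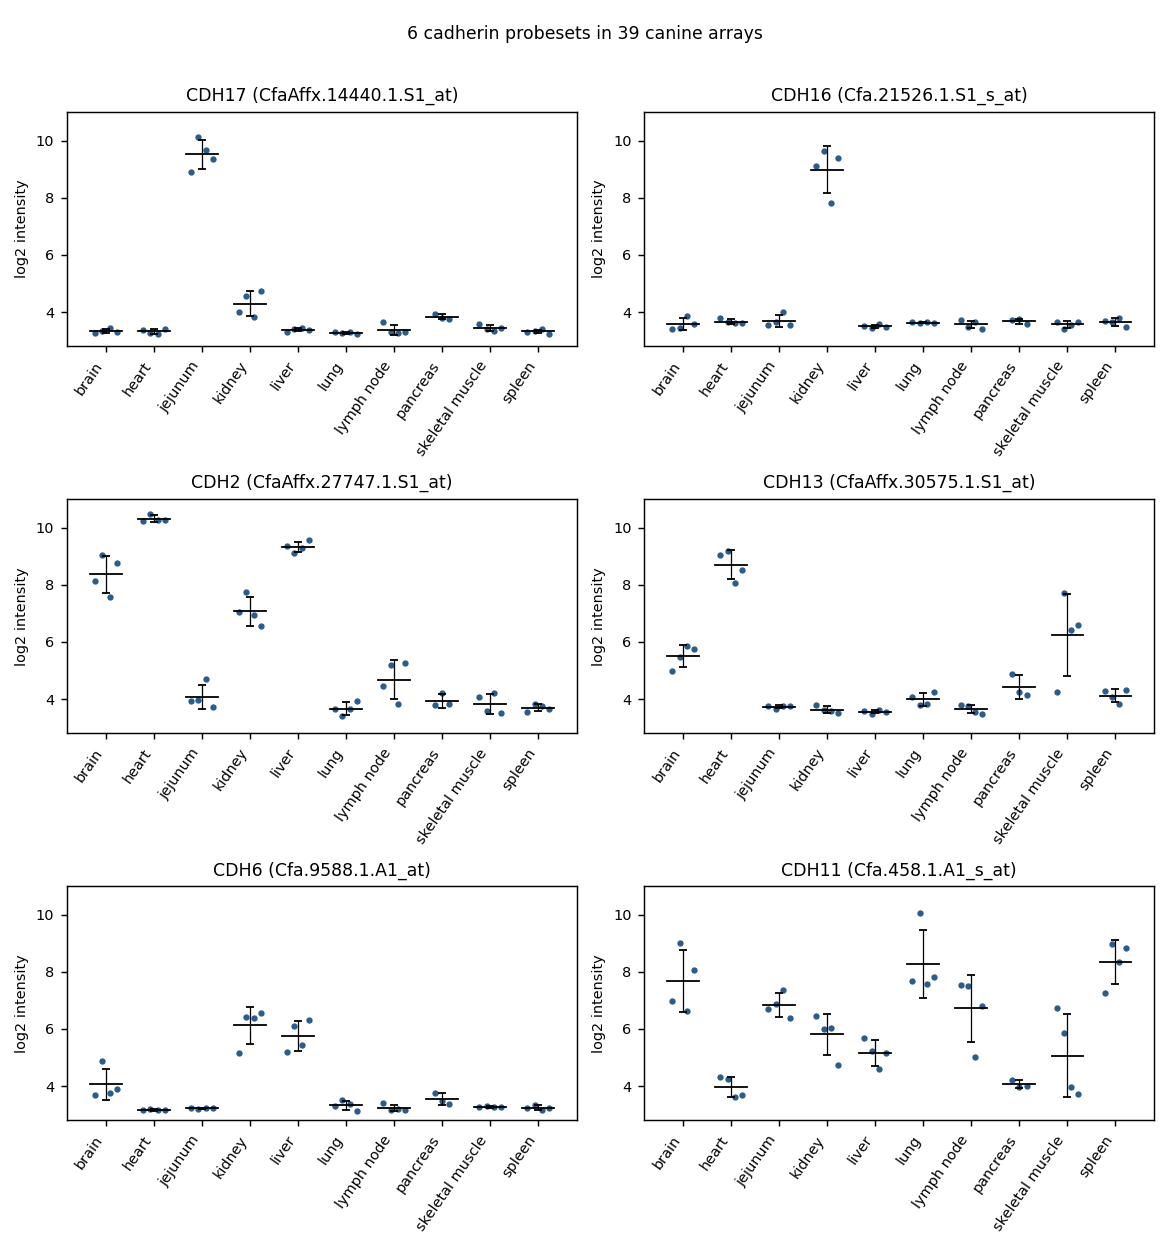
Log2 intensity of 6 cadherin probesets in each of the 39 arrays, by tissue; points are arrays, the long bar is the tissue mean and the whiskers are 1 SD. CDH17 and CDH16 rise in 1 tissue, CDH2 in heart, liver, brain and kidney, CDH13 in heart and skeletal muscle, CDH6 in kidney and liver, and CDH11 varies widely between arrays of a tissue.

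CDH11, OB-cadherin of osteoblasts and other mesenchymal cells, had the broadest distribution, with a mean of at least 5 in 8 of 10 tissues on the brighter of its probesets. Spleen read 7.26, 8.98, 8.33 and 8.82 (8.35 ± 0.77, SD, n = 4), and lung 7.68, 10.04, 7.57 and 7.81 (8.28 ± 1.18, SD, n = 4). Brain read 6.97, 9.02, 6.63 and 8.06. Jejunum, lymph node, kidney, liver and skeletal muscle followed with means from 6.83 down to 5.07, and pancreas and heart came last at 4.07 ± 0.13 (SD, n = 3) and 3.97 ± 0.35 (SD, n = 4). Spleen was 5.25-fold and lung 4.98-fold above the other tissues (limma, adjusted p = 1.50e-04 and 2.04e-04). Pancreas and heart were called lower, at 0.195-fold and 0.181-fold (limma, adjusted p = 4.05e-04 and 7.12e-05). No neighbours in the order of the 10 tissues differed by the test, so the order within the middle is not established. Each of these calls rested on few arrays. Without lung replicate 2 lung was 3.31-fold higher (limma, adjusted p = 0.00850), and without spleen replicate 2 or 4 spleen was 4.54-fold or 4.71-fold higher (0.00265 and 0.00225). Without heart replicate 3 the adjusted p of heart was 0.00103, and without any of the 3 pancreas arrays that of pancreas was 0.00319 to 0.00478. With the housekeeping scaling the pancreas difference of -2.36 became -0.62 (0.216).

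The dimmer probeset of CDH11 correlated with the first at r = 0.83. It read 5.67, 8.28, 5.54 and 5.38 in lung and 5.56, 6.69, 5.46 and 6.43 in spleen. Only lung was called (2.8-fold, limma adjusted p = 2.55e-04), without lung replicate 2 it was 1.74-fold (0.0101), and with the housekeeping scaling the call was lost (0.0118). In both probesets the highest arrays of brain, lung and spleen were their replicates 2.

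Fibroblast marker genes (COL1A1, COL1A2, COL3A1, DCN, LUM and PDGFRA, all 6 measured) moved with CDH11 in some arrays of lung, brain, skeletal muscle and lymph node. Spleen and the other tissues are not described array by array. Lung replicate 2 had the highest mean of the 6 in lung, at 10.6 beside 9.39 to 9.87, and brain replicate 2 the highest in brain, at 7.94 beside 4.87 to 6.53. In skeletal muscle the mean was 10.2, 10.8, 6.79 and 7.46 in replicates 1 to 4, where CDH11 read 6.72, 5.86, 3.96 and 3.72. Replicates 1 and 2 were above 3 and 4 in both, but the order within each pair was opposite. Lymph node replicate 3 had the lowest mean of lymph node, 5.77 beside 8.19 to 8.76, and the lowest CDH11, 5.03 beside 6.81 to 7.54. Between tissues the levels parted: heart had fibroblast means of 8.36 to 10.3 and the lowest CDH11 of the 10 tissues. Spleen, highest for CDH11, had a fibroblast mean of 7.86, below heart (9.05), skeletal muscle (8.83) and jejunum (8.39). Lung, next for CDH11, had the highest fibroblast mean, 9.89. Brain, which followed lung for CDH11, had the lowest fibroblast mean, 6.26. The part of fibroblast content in the CDH11 values was not tested.

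**Figure D3:**
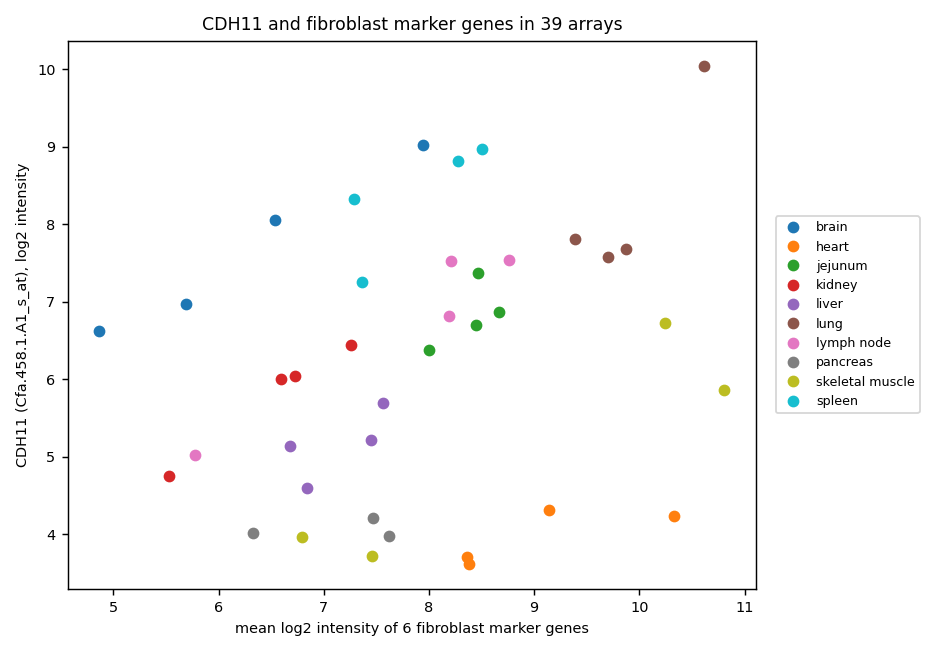
CDH11 (log2 intensity of its brighter probeset) against the mean log2 intensity of 6 fibroblast marker genes in the 39 arrays, coloured by tissue. Arrays of brain, lymph node and skeletal muscle spread along both axes, lung replicate 2 lies at the top right at 10.04 and 10.6, and the 4 heart arrays lie at the bottom right with CDH11 at or under 4.31.

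The remaining 4 genes stayed near the level of most probesets. CDH1, E-cadherin, holds epithelial sheets together. Its only probeset ranged over 0.55 on the log2 scale in all 39 arrays. Its tissue means ran from 3.44 in brain to 3.74 in jejunum, and the F test did not call it (limma, adjusted p = 0.0176). EPCAM, the epithelial cell adhesion molecule, was read in the same arrays at 11.87 ± 0.30 in jejunum, 10.89 ± 0.22 in kidney, 10.02 ± 0.19 in lung, 9.02 ± 0.21 in pancreas and 8.18 ± 0.71 in liver (SD, n = 4, pancreas n = 3), against 3.47 to 4.20 in the other 5 tissues. The mean of the 11 epithelial markers measured, EPCAM among them, was 8.22 in jejunum, 7.19 in lung, 6.85 in pancreas, 6.49 in kidney and 6.20 in liver. It was 4.46 to 4.94 in the other 5. Not every marker followed this: GRHL2 was highest in skeletal muscle (6.44) and lowest in lung (5.62). KRT7 rose mainly in lung (7.04), and CLDN7 read 3.98 in liver. The 5 tissues with high EPCAM had CDH1 means of 3.61 to 3.74, beside 3.44 to 3.66 in the other 5. With a single probeset at this level, the values do not show whether CDH1 is scarce or the probeset responds little.

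CDH3, P-cadherin of basal epithelial layers and placenta, had 3 dim probesets. The one with the highest mean was not called (limma F test, adjusted p = 0.141), with tissue means of 3.98 to 4.49. On another, kidney was called higher (1.60-fold, limma adjusted p = 9.19e-04), but its arrays read 5.48, 4.05, 3.89 and 4.05. Without kidney replicate 1 the fold was 1.24 (0.0375), and with the housekeeping scaling the call was lost (0.253). Lung was next on that probeset, at 4.55, 4.08, 4.59 and 3.79, and was not called. On the last, pancreas was called higher, at 3.99, 3.75 and 3.87 (1.27-fold, limma adjusted p = 7.05e-05). That call was lost without pancreas replicate 1 or 3 (0.00428 and 0.00120). The F test did not call this probeset (limma, adjusted p = 0.00201). The 3 probesets of CDH3 gave no common leading tissue, with correlations of -0.06, 0.11 and 0.51 over the 39 arrays.

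CDH10, T2-cadherin, known from brain, read 3.62, 3.65, 3.42 and 4.56 in brain. It was called higher there (3.81 ± 0.51, SD, n = 4, 1.51-fold, limma adjusted p = 1.32e-05), although brain replicate 3 overlapped with arrays of pancreas and spleen at 3.55. Without brain replicate 4 the fold was 1.27 (1.56e-04), and with the housekeeping scaling the difference of 0.59 turned to -0.01. The difference of brain from pancreas, the next tissue, did not pass the threshold (0.0197). CDH15, M-cadherin of muscle satellite cells and myoblasts, read 4.21, 5.31, 5.28 and 4.73 in skeletal muscle. It was called higher there (4.88 ± 0.52, SD, n = 4, 1.73-fold, limma adjusted p = 1.86e-05). The difference from heart (4.34 ± 0.20, SD, n = 4) did not pass the threshold (limma, adjusted p = 0.0497). Skeletal muscle replicate 1 lay within the other tissues, and spleen replicate 3 read 4.90 beside 3.75 to 3.98 in the other spleen arrays. All 7 genes listed as satellite cell and myoblast markers were measured, and their mean was 3.93 to 4.50 in the 4 skeletal muscle arrays and at most 3.68 in any other. MYF6 carried most of this, with a mean of 7.46 beside at most 3.97 elsewhere, while MYOD1 was at 4.33 and MYF5 at 3.86. PAX7, the defining marker of satellite cells, was at 3.09 to 3.22 in skeletal muscle and at 3.11 to 3.45 in the others. CALCR, also listed, had a mean of 3.44 there and tissue means of 3.33 to 3.49 elsewhere. The list mean is thus mostly a reading of MYF6 and is no measure of satellite cell content. The part of these cells in the CDH15 values was not tested.

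**Figure D4:**
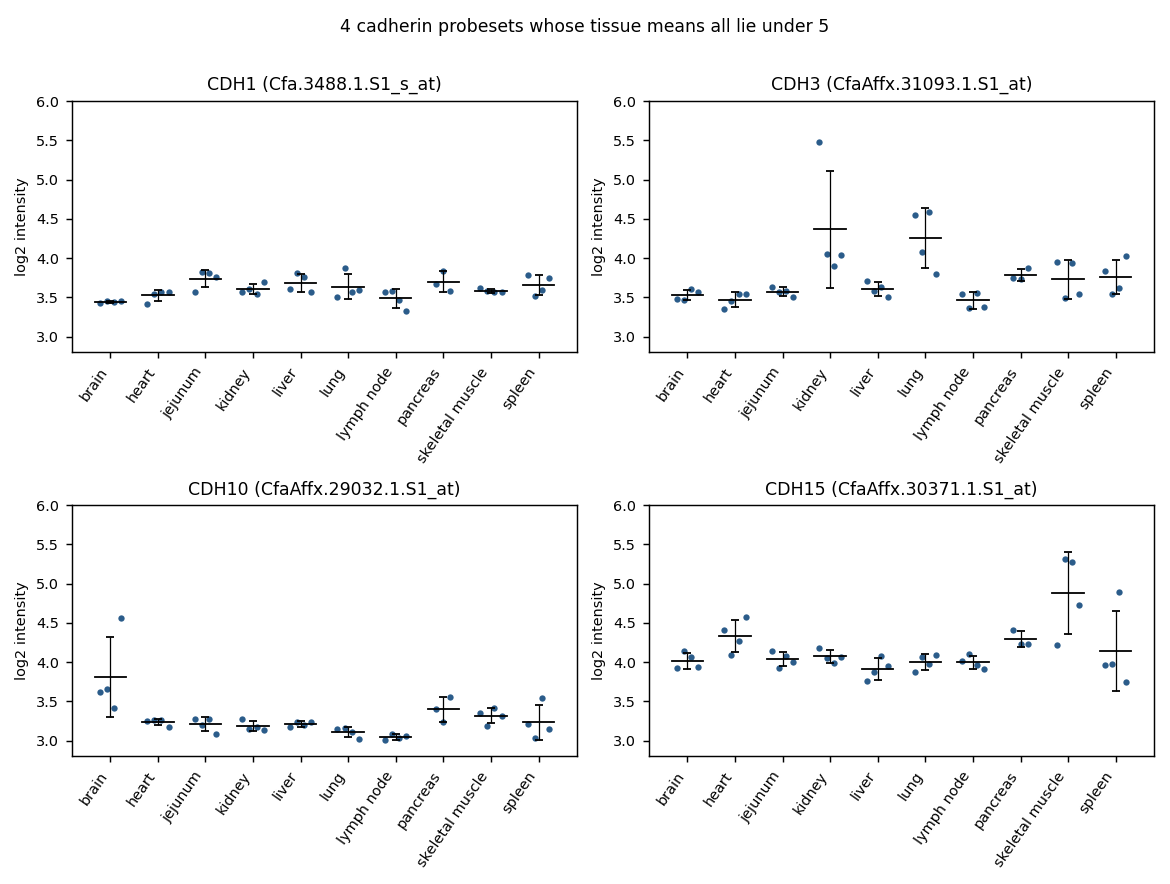
Log2 intensity of 1 probeset each of CDH1, CDH3, CDH10 and CDH15 in the 39 arrays, by tissue; points are arrays, long bars tissue means and whiskers 1 SD. CDH1 is flat between 3.33 and 3.88, and the higher means of CDH3 in kidney and CDH10 in brain lean on kidney replicate 1 and brain replicate 4, at 5.48 and 4.56.

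The genes whose levels most resembled those of a member over the 39 arrays were taken from the 9210 or 9211 other genes called by the F test. These correlations are carried by differences between tissues and are given as a description. For CDH17 they were ANXA13 (r = 0.99), SLC5A1 (0.98), the intestinal sodium-glucose transporter, and CCL25 (0.98), a chemokine of the small intestine. For the first kidney probeset of CDH16 they were SLC28A1 (0.99), a nucleoside transporter, GLYAT (0.99) and LOC609612 (0.98). CDH6 was closest to the liver and kidney enzymes BHMT2 (0.96) and GLDC (0.94) and to the clotting factor F11 (0.94). CDH13 was closest to EEF1A2 (0.93), an elongation factor of muscle and neurons, PLAAT1 (0.92) and LRRC2 (0.92). The dimmer, heart probeset of CDH2 was closest to the atrial light chain MYL7 (0.92), SERPINB2 (0.91) and CORIN (0.91). The brighter probeset of CDH2 had no match as close, with ARL9 (0.86), ADHFE1 (0.80) and HEBP2 (0.79), and neither had CDH11, with TACC1 (0.85), EFEMP2 (0.81) and RYBP (0.80). For CDH10 the closest were PPFIA2 (0.86), ZFP69B (0.86) and SLC6A15 (0.85), and for CDH15 TMEM38A (0.85), ICA1L (0.84) and KCNE2 (0.83). The matches of CDH1 (KDELR2, RYK and ANXA4, highest r = 0.67), of the representative of CDH3 (RSPO4, MGAT3 and OR5W1, 0.78) and of the flat CDH16 probeset (GSTO2, FCRL1 and LOC611685, 0.73) were less close.

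In the RefSeq gene table of the assembly UU_Cfam_GSD_1.0, 6 of the 10 genes (CDH1, CDH3, CDH11, CDH13, CDH15 and CDH16) are on the same chromosome, and CDH6 and CDH10 share another. CDH1 and CDH3 flank LOC100686190, and CDH11 lies next to CDH8. Genes of the shared chromosome led in different organs: CDH16 in kidney, CDH13 in heart, CDH15 in skeletal muscle and CDH11 in spleen and lung. CDH6, called in kidney and liver, and CDH10, called in brain, also parted.

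The proteins with which cadherins work were examined by lists. Each listed gene was read only by the probeset brightest on average. The calls and levels below hold for that probeset, and other probesets of these genes are not given. Across the 15115 genes, each by its brightest probeset, 60.9% were called by the F test, 8.49% were enriched in a tissue, and the median fold in the leading tissue was 1.75. The same median was 3.49 for the 10 cadherin genes. It is set partly by CDH16, whose representative is the flat probeset.

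Of 14 catenins listed, 13 were measured, 10 were called and 3 were enriched, with a median leading fold of 3.52. CTNNB1, beta-catenin, was highest in lung (10.36 ± 0.34, SD, n = 4) at 1.71-fold, and CTNNA1, alpha-catenin, in jejunum (10.85, 3.52-fold) and heart (10.74). CTNND1, which binds the tail of classical cadherins, was enriched in jejunum (8.72, 11.7-fold), and its brain relative CTNND2 in brain (7.78, 15.7-fold). JUP, plakoglobin, led in lung (8.34, 3.27-fold), and CTNNAL1 in kidney (10.07, 4.16-fold). Among the genes named plakophilin, PKP2 was enriched in heart (8.46, 25.7-fold), where CDH2 and CDH13 also led. PKP3 led in jejunum (6.03, 5.60-fold) and PKP4 in brain (10.75, 5.73-fold). CTNNA2 was called with its highest mean of 4.04 in skeletal muscle. Of these leading tissues those of CTNND1, CTNND2, PKP2 and PKP3 passed the test against the next tissue, and those of CTNNB1, CTNNA1, CTNNA2, JUP, CTNNAL1 and PKP4 did not. CTNNA3, ARVCF and PKP1 were not called (limma F test, adjusted p = 0.0121, 0.00501 and 0.0982). CTNNA3 has 7 probesets, of which only the brightest was read.

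Of 7 desmosomal cadherins 6 were measured, 3 were called and 1 was enriched. DSC2 led in jejunum (10.22 ± 0.14, 17.7-fold) with heart next (9.24 ± 0.61), DSG1 in kidney (5.39 ± 1.51, 4.57-fold), and DSC1 in pancreas (4.62 ± 0.35, 1.93-fold; SD, n = 4, pancreas n = 3). The leading tissue passed the test against the next for DSC1 but not for DSC2 or DSG1 (limma, adjusted p = 3.33e-04, 0.151 and 0.132). DSG2 (on the brightest of its 4 probesets), DSG3 and DSG4 were not called and had no tissue mean above 4.61. Of 40 other cadherins and protocadherins 32 were measured, 12 were called and 3 were enriched, with a median leading fold of 1.40, and 21 of the 32 had no tissue mean of 5. CDHR2, a protocadherin of brush border microvilli, was enriched in jejunum (10.05 ± 0.09, SD, n = 4, 33-fold) and in kidney (9.05 ± 0.43, SD, n = 4, 15.2-fold). These did not differ by the threshold (limma, adjusted p = 0.00112). The same tissues came first and second for CDH17, but there kidney was at 4.29 and was not called higher. PCDH9 was enriched in brain (8.24 ± 1.06, SD, n = 4, 20.4-fold), and PCDH7 in heart (8.43 ± 0.37, SD, n = 4, 10.8-fold) with brain next (7.70), which did not differ from heart by the test (limma, adjusted p = 0.0753). CDH18 and CDH9, chosen after their values were seen as relatives of CDH10, were 8.6-fold and 5.13-fold higher in brain, where they read 6.54 and 5.83. CDH5, the VE-cadherin of endothelium and also an endothelial marker here, was read on the brightest of its 4 probesets. That probeset was not called by the F test (limma, adjusted p = 0.0358), with tissue means of 5.16 to 5.99. It was called higher in pancreas (1.62-fold, limma adjusted p = 7.11e-04). The values of this probeset do not show whether CDH5 itself is even across organs.

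Of 26 symbols of junction partners 20 were measured, 16 were called and 1 was enriched, with a median leading fold of 2.58. EPCAM was 48.3-fold higher in jejunum. LIMA1, an actin-binding partner of alpha-catenin, led in jejunum (9.71 ± 0.20, SD, n = 4, 7.08-fold), and PTPRM, a phosphatase that binds cadherins, in lung (10.31 ± 0.29, SD, n = 4, 4.90-fold). The leading tissue passed the test against the next for EPCAM (kidney next, limma adjusted p = 6.82e-04). It did not for LIMA1 (kidney next, 0.00143) or PTPRM (heart next, 0.216). All 9 repressors of E-cadherin were measured, 4 were called and 0 were enriched, with a median leading fold of 1.59. SNAI2 led in lung (8.37 ± 0.95, SD, n = 4, 7.16-fold), ZEB2 in spleen (9.36 ± 0.64, SD, n = 4, 5.01-fold) and TCF4 in brain (9.78 ± 0.60, SD, n = 4, 4.88-fold). None of these 3 leading tissues passed the test against the next: spleen for SNAI2 (limma, adjusted p = 0.373), brain for ZEB2 (0.860) and spleen for TCF4 (0.253).

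**Figure D5:**
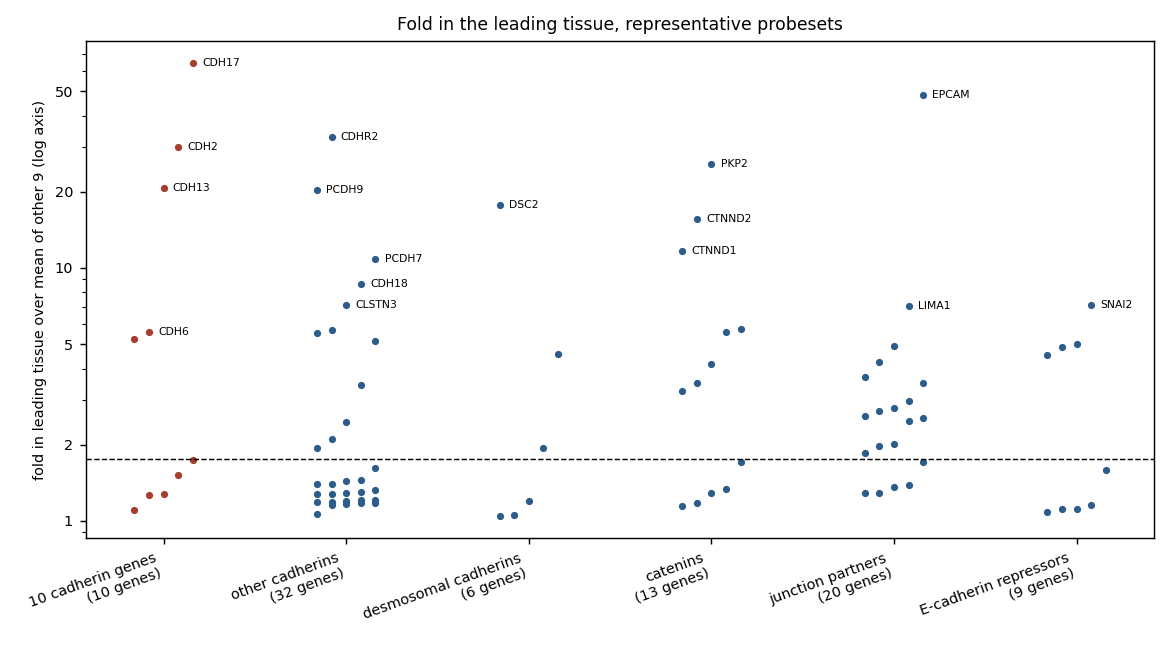
Fold of each gene in its leading tissue over the mean of the other 9 tissues (log axis), by its brightest probeset, for the 10 cadherin genes and 5 lists of related genes; the dashed line is the median of 15115 genes, 1.75. CDH17, at 64.4, is the highest point, and CDH1, CDH3, CDH10, CDH15 and the flat probeset of CDH16 lie at or under the line.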

How the data were processed

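The authors hybridised RNA from 10 organs of 4 dogs to Affymetrix Canine Version 2.0 arrays, and left out 1 pancreas array as an outlier. The authors deposited log2 intensities, processed in Partek: probe signals were adjusted for GC content and sequence, background was corrected by RMA, the 39 arrays were quantile normalized, and probes were summarised by median polish, so differences of overall RNA level between organs are removed. Tissue was taken from the sample titles. Symbols came from the probe annotation table: 29254 probesets had 1 symbol, 439 several and 13167 none, and none of the latter groups was named.

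A mean per tissue was fitted to all 42860 probesets with limma 3.58.1 in R 4.3.3, with a moderated F test, contrasts of each tissue against the mean of the other 9, and all pairs of tissues. P-values were adjusted by Benjamini-Hochberg over all probesets, at a false discovery rate of 0.001. The scan date, a factor in the study, is not in the labels and was not used. The script was tested on simulated data. The precision is limited by 3 or 4 arrays a tissue. Genes named are the 10 cadherins, all catenins, of the other lists the 3 with the largest fold and up to 3 not called, and the 3 most correlated with each cadherin. The cadherins and the lists were chosen with earlier results of these data known. Alternatives were other variance models, scalings, a limit on dim probesets, the replicate block, omission of arrays, and other rules for genes with several probesets. Sequences and coordinates were not used here, apart from the order of protein-coding genes in the RefSeq table.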

Additional observations from a re-analysis of the deposited data

Results flagged for a closer look

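In 14 of 180 groups of 4 arrays and a cadherin probeset, 1 array stood apart from its 3 companions by Dixon's criterion, and chance alone gives about 1 in 20. The arrays of CDH11 that stood apart were lung replicate 2 on the brighter probeset (10.04, others 7.57 to 7.81) and on the dimmer one (8.284, others 5.38 to 5.67), and brain replicate 2 on the latter (6.567, others 4.93 to 5.07). For the dimmer probeset of CDH13 they were heart replicate 2 (7.962, others 5.81 to 6.02), jejunum replicate 3 (4.414, others 3.95 to 4.02) and lung replicate 3 (3.75, others 3.93 to 3.95). For the CDH6 probeset high in kidney and liver they were kidney replicate 1 (5.149, others 6.4 to 6.56), lymph node replicate 1 (3.403, others 3.15 to 3.19) and skeletal muscle replicate 2 (3.317, others 3.25 to 3.27), and on the probeset called in pancreas alone liver replicate 4 (4.032, others 3.56 to 3.57). For CDH3 they were spleen replicate 3 on the probeset with the highest mean (4.923, others 3.97 to 4.11) and kidney replicate 1 on the one called in kidney (5.479, others 3.89 to 4.05). Heart replicate 1 of CDH16 on its first kidney probeset (3.788, others 3.62 to 3.64) and lymph node replicate 1 of CDH17 (3.648, others 3.26 to 3.31) were small differences near the level of most probesets.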

How the results depend on the processing

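The count of cadherin genes called by the F test was 7, ranged from 5 to 7 without single arrays, and was 10 with equal medians of 13 housekeeping genes. The count of enriched genes (3) and of genes whose leading tissue differed from the next (2) did not move without any array (3 to 3 and 2 to 2), and 45 partner genes became 43 to 48. The second count was 4 with the mean of the probesets of a gene, 4 with any probeset of a gene and 3 with its probeset of largest SD, both chosen after seeing the data. Those 2 choices gave 9 genes called by the F test and 4 enriched. The housekeeping scaling shifted arrays by 1.61 in pancreas, 0.51 in skeletal muscle and -0.56 in jejunum on average, and gave 76 partner genes called. Relative to those shifts it reversed CDH1 in jejunum (-0.52) and against pancreas (-2.12), CDH10 in brain (-0.0067) and against pancreas (-1.69), CDH11 between spleen and lung (-0.014), and the flat CDH16 probeset in lymph node (-0.019) and against skeletal muscle (-0.72). Of 52 calls of a cadherin probeset in a tissue, 31 were kept under it and 31 without each of the 39 arrays. The last CDH16 difference was also reversed without skeletal muscle replicates 2 and 4 and spleen replicate 3 (-0.10) and ranged from -0.046 to 0.28 without single arrays. The mean of probesets reversed CDH11 between spleen and lung (-0.058) and CDH16 in lymph node (-0.25), and without single arrays the CDH11 difference ranged from -0.16 to 0.66 and that of CDH1 against pancreas from -0.019 to 0.11. None of these reversed differences passed the threshold before. The exception is CDH10 in brain. The cause was not tested.

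The labels do not say that a replicate number marks a dog. Same-numbered arrays of different tissues deviated together with a median r of 0.14 (-0.29 to 0.46, 101 of 171 pairs above 0.1), and arrays of different number with -0.05 (70 of 513 above 0.1). Of 39 arrays 30 were closest to their own number, a hint from the data, and not every pair passed 0.1, so the block was kept as an alternative. With the replicate block 6 cadherin genes were called by the F test in place of 7, 3 were enriched, 2 differed from the next tissue, 47 partner genes were called, and 48 of the 52 calls were kept.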
